A study of Mus musculus with 15 samples.

Results

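The 38 genes described here encode effectors of the interferon response, the proteins that cells make after interferon has bound its receptor. They are the rows of 2 read-count tables whose gene name equals 1 of 38 listed symbols, and all 38 were found in both tables, among 53689 named records in the first table (set 1) and 53618 in the second (set 2). The RNA came from mouse small cell lung cancer cells that had been taken from tissue and kept in culture in medium with little serum. In set 1, RPMS lung lines (Rb1-/-:Trp53-/-:STAT3-/-:MYC; CMV_228, CMV_231 and CMV_252) are set against RPM lung lines (Rb1-/-:Trp53-/-:MYC; CMV_426, CMV_427, CMV_428 and CMV_429). By the labels, loss of Rb1 and of Trp53 is common to both groups, as is MYC, which carries no deletion mark. In set 2, RPMS lines from liver metastases (CMV_273, CMV_341, CMV_343 and CMV_344) are set against 4 RPMS lung lines, the 3 of set 1 and CMV_232, and all 8 carry the STAT3 deletion. The labels name separate lines, but how the alleles were deleted, which cells were targeted and whether each line came from its own animal are not given in the sources used here, so p-values measure the spread between these lines. The series title places interferon downstream of Stat3 and STING in metastatic spread, which is the question behind both comparisons. Levels are CPM, the counts scaled to library size with TMM factors. Each adjusted p is from edgeR (quasi-likelihood, Benjamini-Hochberg over all genes tested in the set).

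Type I interferon binds the receptor pair IFNAR1 and IFNAR2, whose kinases JAK1 and TYK2 phosphorylate STAT proteins. With IRF9 these form the ISGF3 complex, which binds a short DNA element, the interferon-stimulated response element (ISRE), upstream of its target genes. The effectors made from these genes bind viral RNA, block its translation or entry, edit double-stranded RNA or tag proteins with the ubiquitin-like ISG15. Macrophages and other leukocytes express many of them, and epithelial tumour cells can do so too.

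Promoter sequences were taken from RefSeq for build GRCm38.p6 as the 250 bases before an annotated transcription start, and 30 of the 38 genes matched an entry. The ISRE was searched as GAAA and GAAA separated by any pair of bases, and GAS, the interferon gamma-activated site, as TTC and GAA separated by any 3 bases, on both strands with overlapping matches counted. Of the 30 genes 13 held an ISRE match (43.3%), against 3.46% of 27025 genes in the table, and 5 held a GAS match (16.7%), against 8.13% of all genes. The 5 promoters printed here contrast genes that were at 0 counts, nearly at 0 or still measurable in the RPMS lines, as described further on. Sequences run 5′ to 3′ on the strand of the gene, in lower case, and capitals mark the ISRE matches, which in Isg15 and Bst2 overlap each other.
Isg15: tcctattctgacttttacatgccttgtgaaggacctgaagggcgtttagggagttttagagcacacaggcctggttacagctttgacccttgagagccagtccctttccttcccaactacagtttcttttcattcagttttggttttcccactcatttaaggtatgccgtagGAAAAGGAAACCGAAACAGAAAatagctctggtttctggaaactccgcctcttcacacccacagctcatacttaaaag
Ifit3b: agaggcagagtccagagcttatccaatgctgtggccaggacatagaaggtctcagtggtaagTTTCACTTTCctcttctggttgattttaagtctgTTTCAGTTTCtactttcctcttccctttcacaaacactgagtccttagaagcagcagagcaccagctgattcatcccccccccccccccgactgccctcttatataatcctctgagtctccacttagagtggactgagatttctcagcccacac
Ifit3: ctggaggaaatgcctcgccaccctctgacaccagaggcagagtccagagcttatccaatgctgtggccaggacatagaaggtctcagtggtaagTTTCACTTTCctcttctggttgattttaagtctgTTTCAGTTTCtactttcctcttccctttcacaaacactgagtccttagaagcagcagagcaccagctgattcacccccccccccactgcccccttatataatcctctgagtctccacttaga
Bst2: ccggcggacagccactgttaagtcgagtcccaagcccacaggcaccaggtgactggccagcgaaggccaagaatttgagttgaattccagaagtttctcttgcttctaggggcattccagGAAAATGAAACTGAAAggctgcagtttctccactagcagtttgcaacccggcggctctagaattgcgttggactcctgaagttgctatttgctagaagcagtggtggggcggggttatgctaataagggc
Ifit2: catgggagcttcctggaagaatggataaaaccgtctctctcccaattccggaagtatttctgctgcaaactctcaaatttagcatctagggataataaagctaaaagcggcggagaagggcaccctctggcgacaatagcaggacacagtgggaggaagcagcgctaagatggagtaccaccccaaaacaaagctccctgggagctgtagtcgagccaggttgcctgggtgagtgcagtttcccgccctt
The Isg15 window (chr4:156200819-156201068, minus strand) holds 3 matches that start 66 to 78 bases before the transcription start. The Ifit3b window (chr19:34607707-34607956, plus strand) and the Ifit3 window (chr19:34583279-34583528, plus strand) hold 2 matches each, and Bst2 (chr8:71537473-71537722, minus strand) holds 2. The Ifit2 window (chr19:34550444-34550693, plus strand) holds no ISRE match, nor does the window of its second RefSeq start. The Ifit2 window printed here and the Bst2 window each hold 1 GAS match. Capitals do not mark GAS matches, but the one in Bst2 ends in capitals because it overlaps the start of the ISRE matches. A match is a run of letters and not a tested site, and a window without a match says nothing about sequence outside it.

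The libraries of set 1 had 25344949 to 31345631 counts and those of set 2 had 9453715 to 18451248, so that 3 counts, the floor used here for detection, equal 0.0907 to 0.120 CPM and 0.160 to 0.292 CPM. Stat3, the gene deleted in RPMS, stood at 16.3, 19.0 and 7.83 CPM in the 3 RPMS lines of set 1, against 179, 195, 160 and 209 CPM in the 4 RPM lines, a log2 fold change of -3.69 (SE 0.35, adjusted p = 0.00176). In the 8 RPMS libraries of set 2 Stat3 ran from 11.2 to 28.5 CPM. Of the genes named in both genotypes, Myc stood at 0.676, 1.21 and 3.57 CPM in the RPMS lines, against 14.8, 28.3, 9.66 and 30.6 CPM in the RPM lines, without overlap (log2 fold change -3.52, SE 0.76, adjusted p = 0.0146). It was -4.47 without RPMS line CMV_252, and did not pass without CMV_231 (adjusted p = 0.0603). Rb1 stood at 124, 130 and 22.0 CPM in RPMS, against 59.0, 38.7, 50.3 and 44.2 CPM in RPM, and Trp53 at 0.399, 0.571 and 6.19 CPM in RPMS, against 2.90, 2.40, 6.33 and 5.31 CPM in RPM, both with overlap. Which part of Rb1 and Trp53 the alleles remove and what MYC in the labels stands for are not given in the sources used here. The reads of these genes therefore do not check the labels. The labels call the cells lung epithelium, and the libraries differed in the cell types whose markers they carried. Summed markers of neuroendocrine cells, a cell type that many small cell lung cancers resemble, were at 1137 to 3631 CPM in the RPMS lines of set 1. In the RPM lines they were at 12.0 to 72.3 CPM, and 9 of the 11 markers were higher in RPMS. Summed leukocyte markers were at 39.1 to 131 CPM in RPMS, nearly all of it Lyz2 and Coro1a, against 3471 to 16370 CPM in RPM. Of 17 leukocyte markers tested 15 were lower in RPMS and 2 did not pass, and the T and NK cell markers Cd3e and Ncr1 were at 0 in every library of set 1. Markers at 0 counts in every RPMS line, such as Ptprc and C1qb here and Dcn among fibroblast markers, were tested only through their RPM reads. They could only come out lower. By the same limit Neurod1, at 0 counts in every RPM line, could only come out higher. Summed fibroblast markers were at 8.20 to 28.4 CPM in RPMS, against 725 to 1615 CPM in RPM, where Fn1 alone gave 525 to 1212 CPM. Of 9 tested 6 were lower in RPMS, Thy1 was higher, and Col1a2 and Pdgfra did not pass. Summed epithelial markers reached at most 133 CPM in RPMS, against 62.3 to 735 CPM in RPM, where line CMV_429 was highest. Of the sum in CMV_429, Krt8 gave 546 CPM, Cldn3 84.2 CPM, Krt19 74.8 CPM and Cdh1 21.8 CPM. Epcam, Cldn4, Cldn7 and Esrp1 had 0 counts there. Of 7 epithelial markers tested 0 passed. In bulk RNA, fewer cells of a type and less RNA per cell cannot be told apart, and since genotype and these markers differ between the same groups, their parts cannot be told apart. In set 2 the library labelled CMV_252 stood apart from the other 7, with 162 CPM of neuroendocrine markers against at least 2832 CPM, and 460 CPM of fibroblast markers against at most 233 CPM. Of the 460 CPM, 449.5 were Fn1, while liver line CMV_341, with the 233 CPM, had 100.2 CPM of Fn1 and also Dcn (37.2 CPM), Acta2 (17.2 CPM) and Col3a1 (14.2 CPM). Line CMV_252 had 1137 CPM of neuroendocrine markers in set 1.

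In RPMS lung lines the interferon effectors were lower than in RPM lung lines, most of them to near or at 0 counts. Of the 38 genes 29 were lower, none was higher and 9 did not pass the test, while of the 17654 genes tested 30.6% passed, 15.7% as lower and 14.9% as higher. All 38 fold changes were below 0, and in 32 genes the RPMS and RPM libraries did not overlap, where 21.9% of all genes tested did not overlap in that direction. The median log2 fold change was -8.22, or -7.32 with genes at 0 counts in RPMS set at their bounds, against -0.01 over all genes tested. Summed over the 38 genes, the RPMS lines had 268, 357 and 219 CPM, against 3747, 2175, 1024 and 5190 CPM in the RPM lines. The count of lower genes was 21 without RPMS line CMV_228 and 24 to 29 without any other single library. By their raw counts in the RPMS lines the genes fell into 15 that were measurable, with more than 3 counts in each of the 3 libraries, 10 at 0 in all 3, and 13 between these. Of the 15 measurable genes 9 were lower, of the 13 between 11, and of the 10 at 0 counts 9. The classes rest on the RPMS counts that the test also uses, so the 10 genes at 0 could only come out lower. They had enough reads to be tested only through the RPM lines, and all 10 count among the 38 fold changes below 0. Genes between with few RPMS reads share this limit in part.

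**Figure D1:**
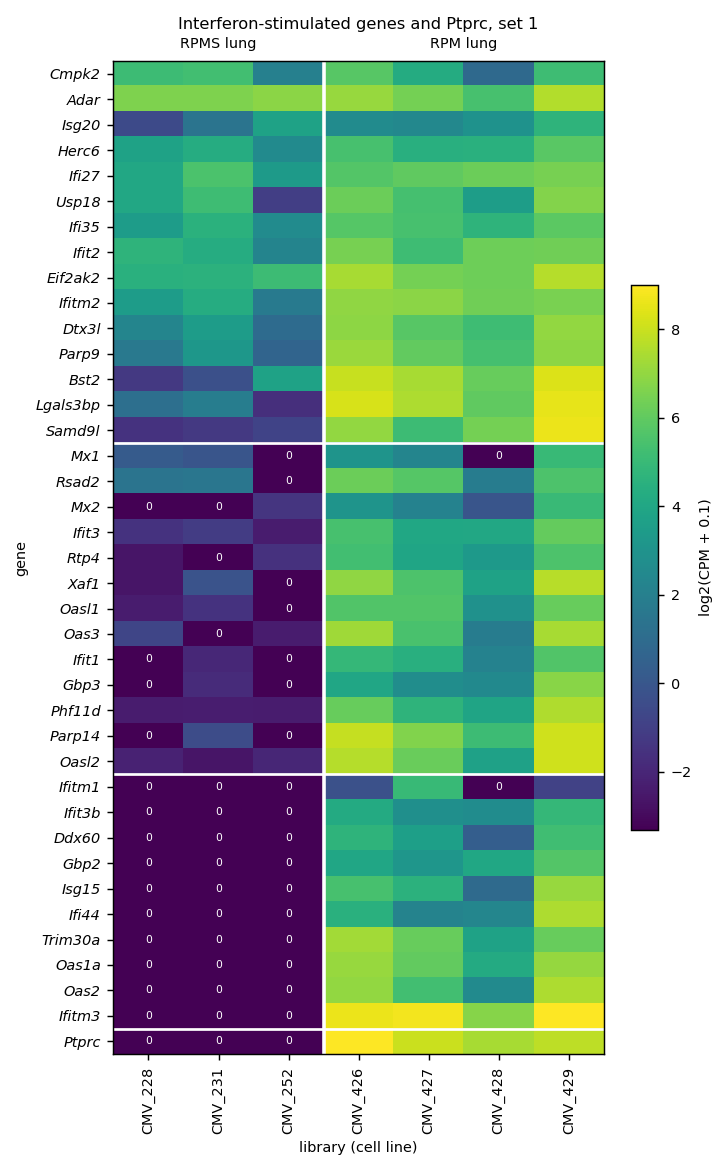
Level of each of the 38 genes and of Ptprc in the 7 libraries of set 1, as log2(CPM + 0.1) on the colour scale, with 3 RPMS lung lines left of 4 RPM lung lines and genes listed in 3 blocks (15 measurable, 13 between, 10 at 0 counts in RPMS) above Ptprc. White zeros mark 0 counts, which fill the RPMS columns of the lowest member block and of Ptprc, and among the RPM columns CMV_428 has the lowest sum, at 1024 CPM.

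The 10 genes without a single read in the 3 RPMS lines of set 1 were Ifitm3, Ifitm1, Oas1a, Oas2, Isg15, Ifi44, Trim30a, Gbp2, Ddx60 and Ifit3b. Ifitm3, a membrane protein that blocks virus entry (chromosome 7, 141009586 to 141010770), had 395, 434, 110 and 509 CPM in RPM lines CMV_426, CMV_427, CMV_428 and CMV_429, which is the order used for RPM lines from here on. Against the floor of 3 counts per library Ifitm3 was at least 3905-fold lower in RPMS (adjusted p = 0.00239). Oas1a and Oas2 make the short oligoadenylates that activate RNase L, and lie on chromosome 5. Oas2 had 129, 38.5, 5.77 and 180 CPM in RPM and was at least 954-fold lower in RPMS (adjusted p = 0.0120), or 624-fold without RPM line CMV_429. Oas1a was at least 951-fold lower (adjusted p = 0.00442), and 57.6% of its 50-base stretches also occur in Oas1g, so reads of these copies may not be told apart. In all 4 RPM lines Ifitm3, Oas1a and Oas2 were above the floor, and no RPMS library overlapped them.

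Isg15 itself, the ubiquitin-like tag (chromosome 4, 156199424 to 156200818), had 42.9, 23.9, 1.84 and 136 CPM in the RPM lines and was at least 553-fold lower in RPMS (adjusted p = 0.0189). Its RPM lines thus spread widely, from 46 counts in CMV_428 to 3438 in CMV_429, and without CMV_429 the bound is 247-fold. Ifi44, an interferon-induced cytoplasmic protein, had 22.2, 4.42, 5.01 and 182 CPM in RPM and was at least 575-fold lower in RPMS (adjusted p = 0.0289), or at least 114-fold without CMV_429. Its call was lost without RPM line CMV_426 (adjusted p = 0.0513) or RPMS line CMV_228 (0.0700), CMV_231 (0.0689) or CMV_252 (0.0509). Trim30a, a ubiquitin ligase family member, was at least 835-fold lower (adjusted p = 0.00545), or 556-fold without RPM line CMV_426. The guanylate-binding protein gene Gbp2 was at least 251-fold lower (adjusted p = 0.00489), or 146-fold without CMV_429, and the RNA helicase gene Ddx60 at least 206-fold lower (adjusted p = 0.0137). Ifit3b was at least 166-fold lower (adjusted p = 0.00478), and it shares 44.5% of its 50-base stretches with Ifit3, from which it cannot be fully separated. Ifitm1 was the member of this block that did not pass (adjusted p = 0.104). It had 0.745, 31.1, 0 and 0.436 CPM in the RPM lines, so that nearly all of its reads came from CMV_427, and without that line its bound fell to 4.25-fold, against 87.1-fold with it.

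Among the 13 genes between, reads were present in some RPMS libraries, and 11 were lower. Ifit1, which binds viral RNA that lacks a host cap, had 0, 0.159 and 0 CPM in RPMS lines CMV_228, CMV_231 and CMV_252, the order used for RPMS lines from here on, against 29.8, 21.7, 4.25 and 50.03 CPM in RPM (log2 fold change -8.87, SE 1.56, adjusted p = 0.00771). All 5 of its RPMS reads came from CMV_231, as did all of those of Gbp3 and Parp14. Ifit3, a partner of Ifit1, had 0.246, 0.349 and 0.0907 CPM in RPMS, against 42.8, 15.9, 16.4 and 67.3 CPM in RPM, a log2 fold change of -7.26 (SE 0.89, adjusted p = 0.00289), and it shares 51.2% of its 50-base stretches with Ifit3b. Oasl2, a relative of the oligoadenylate synthetases, averaged 0.112 ± 0.0447 CPM in RPMS (SD, n = 3) and 140 ± 120 CPM in RPM (n = 4), a log2 fold change of -10.22 (SE 1.41, adjusted p = 0.00380). The 11 lower genes of this block averaged at most 0.285 CPM in RPMS, with Xaf1 the highest. Xaf1, a pro-apoptotic protein gene, averaged 0.285 CPM in RPMS and 97.9 CPM in RPM (log2 fold change -8.41, SE 1.73, adjusted p = 0.0125), and Parp14, a mono-ADP-ribosyltransferase, 0.212 CPM in RPMS and 164 CPM in RPM (log2 fold change -9.59, SE 1.72, adjusted p = 0.00819). The others were Oas3, Oasl1, Rtp4, Phf11d, Gbp3 and Mx2. Since so few reads stand on the RPMS side, single libraries set the size of these changes. Without RPMS line CMV_231 Ifit1, Parp14 and Gbp3 had no RPMS read, and against the floor they were at least 289-fold, 1795-fold and 386-fold lower in RPMS. Mx2 had no RPMS read without CMV_252, with a bound of 122-fold. Without RPMS line CMV_231 the log2 fold change was -9.80 for Oasl1 and -11.45 for Xaf1, with 3 and 2 RPMS reads left. Without RPMS line CMV_228 it was -10.83 for Oas3, with 3 RPMS reads left, and -9.001 for Parp14, and without CMV_252 it was -9.60 for Rtp4, with 2 left. Without RPM line CMV_429 it was -5.55 for Mx2, -7.75 for Xaf1, -8.56 for Phf11d and -7.12 for Gbp3. Without RPMS line CMV_228 the calls of Xaf1 (adjusted p = 0.0516) and Gbp3 (0.0634) were lost. That of Mx2, which the annotation lists as a polymorphic pseudogene, was lost without RPM line CMV_426 (0.0566), CMV_427 (0.0537) or CMV_429 (0.0584) or RPMS line CMV_228 (0.107) or CMV_231 (0.105).

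Mx1 and Rsad2 were the genes of the middle block that did not pass. Rsad2 encodes viperin, which makes a chain-terminating nucleotide, and had 2.61, 2.79 and 0 CPM in RPMS, against 74.5, 52.9, 3.49 and 47.3 CPM in RPM (log2 fold change -4.63, SE 1.62, adjusted p = 0.0691). The groups did not overlap, but RPM line CMV_428 lay close to the RPMS lines, and without it Rsad2 passed (log2 fold change -5.02, adjusted p = 0.0498). The GTPase gene Mx1 had 1.07, 0.857 and 0 CPM in RPMS, against 8.35, 4.79, 0 and 31.8 CPM in RPM (log2 fold change -4.12, SE 2.13, adjusted p = 0.187). Here the groups overlapped, since CMV_428 had no Mx1 read.

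Of the 15 genes measurable in every RPMS line, 9 were lower. Bst2, which encodes tetherin, a protein that holds budding viruses at the cell surface, had 0.307, 0.698 and 13.8 CPM in RPMS, against 251, 167, 70.4 and 329 CPM in RPM (log2 fold change -5.37, SE 1.502, adjusted p = 0.0347). Line CMV_252 held 457 of the 489 Bst2 reads of the RPMS lines, and without it the log2 fold change was -8.67 (adjusted p = 0.00422). The call was lost without RPM line CMV_426 (0.0618), CMV_427 (0.0622) or CMV_429 (0.0642) or RPMS line CMV_228 (0.0686) or CMV_231 (0.0906). Eif2ak2, the kinase PKR that stops translation on double-stranded RNA, had 22.4, 24.2 and 35.1 CPM in RPMS, against 168, 85.0, 76.5 and 198 CPM in RPM (log2 fold change -2.28, SE 0.42, adjusted p = 0.00932). Its RPMS lines lay within a narrow band below all RPM lines.

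Ifit2, next to Ifit3 on chromosome 19, had 25.7, 19.8 and 4.56 CPM in RPMS, against 88.2, 35.7, 77.0 and 81.5 CPM in RPM (log2 fold change -2.08, SE 0.62, adjusted p = 0.0434). It differed in this from Ifit3b, Ifit3 and Ifit1 of the same cluster (34550694 to 34650009), which had 0 to 22 reads over the 3 RPMS lines, where Ifit2 had 1610. The groups did not overlap, but its call was lost without RPM line CMV_426 (adjusted p = 0.0843), CMV_428 (0.0792) or CMV_429 (0.0821) or RPMS line CMV_228 (0.0665) or CMV_231 (0.109). The ligase Dtx3l and its partner Parp9 share a divergent locus on chromosome 16 and overlap on opposite strands by 458 bases. Parp9 had 3.07, 9.01 and 1.45 CPM in RPMS, against 143, 66.1, 40.9 and 120 CPM in RPM (log2 fold change -4.36, SE 0.81, adjusted p = 0.00936). Dtx3l had 4.70, 11.1 and 1.90 CPM in RPMS, in the same order of lines, against 121, 54.8, 36.1 and 129 CPM in RPM (log2 fold change -3.85, SE 0.79, adjusted p = 0.0124), which no longer passed without RPMS line CMV_228 (0.0561). Without RPMS line CMV_231 the log2 fold changes were -5.35 for Parp9 and -4.68 for Dtx3l.

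Samd9l, a growth-restraining antiviral factor, averaged 0.339 ± 0.105 CPM in RPMS (SD, n = 3) and 162 ± 161 CPM in RPM (n = 4; log2 fold change -8.88, SE 1.14, adjusted p = 0.00314), and without RPM line CMV_429 its log2 fold change was -7.93. Lgals3bp, a secreted galectin-binding glycoprotein, averaged 2.003 ± 1.71 CPM in RPMS and 230 ± 137 CPM in RPM (log2 fold change -6.84, SE 1.17, adjusted p = 0.00713), or -7.58 without RPMS line CMV_231. In the RPMS lines these values rest on 8 to 15 reads for Samd9l and 7 to 114 for Lgals3bp. Ifitm2 had 11.0, 19.7 and 3.29 CPM in RPMS, against 125, 117, 79.1 and 90.7 CPM in RPM (log2 fold change -3.18, SE 0.61, adjusted p = 0.00988), or -3.84 without RPMS line CMV_231. Its exons share 40.9% of their bases with the gene Gm45717 on the same strand, which had 649 reads in CMV_228 and at most 1 in any other library of set 1, so its level in CMV_228 is uncertain. Ifi35, which binds NMI, averaged 13.5 ± 8.67 CPM in RPMS and 45.4 ± 14.8 CPM in RPM (log2 fold change -1.75, SE 0.52, adjusted p = 0.0415). Its exons share 16.8% of their bases with Gm11626 on the opposite strand. Its call was lost without RPM line CMV_426 (0.0831), CMV_427 (0.0751) or CMV_429 (0.0852) or RPMS line CMV_228 (0.138) or CMV_252 (0.0599), and without RPMS line CMV_231 its log2 fold change was -2.38.

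The 6 measurable genes that did not pass were Cmpk2, Adar, Usp18, Isg20, Ifi27 and Herc6. Cmpk2, a mitochondrial nucleotide kinase encoded beside Rsad2 on chromosome 12, had 34.3, 39.0 and 4.02 CPM in RPMS, against 55.0, 19.2, 1.76 and 35.6 CPM in RPM (log2 fold change -0.11, SE 1.09, adjusted p = 0.949). The groups overlapped, with RPM line CMV_428 the lowest of all 7 libraries and RPMS line CMV_231 above every RPM line but CMV_426. In the same 2 RPMS lines its neighbour Rsad2 had 2.61 and 2.79 CPM. Adar, which edits adenosine to inosine in double-stranded RNA, had 99.7, 97.3 and 118 CPM in RPMS, against 137, 85.7, 43.1 and 193 CPM in RPM (log2 fold change -0.13, SE 0.47, adjusted p = 0.856). The RPMS lines lay inside the range of the RPM lines. Adar shares 16.8% of its exon bases with Chrnb2 on the opposite strand, and Chrnb2 had 1100 to 2421 counts in RPMS, against 40 to 142 in RPM. The strand setting of the counting is not given in the sources used here, and the part of this overlap in the Adar level was not tested.

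Usp18, which removes ISG15 from proteins and restrains the receptor, had 16.9, 35.7 and 0.393 CPM in RPMS, against 75.6, 40.7, 11.4 and 105 CPM in RPM (log2 fold change -1.72, SE 1.28, adjusted p = 0.350). The groups overlapped, and the RPMS lines spread 90.8-fold, with 13 reads in CMV_252 and 1124 in CMV_231. Isg20, an RNA exonuclease, ran in another order, with 0.584, 2.60 and 13.4 CPM in RPMS, against 6.03, 5.20, 7.66 and 25.8 CPM in RPM (log2 fold change -1.01, SE 1.07, adjusted p = 0.515), and CMV_252 lay within the RPM range. Ifi27 averaged 23.9 ± 18.3 CPM in RPMS and 70.2 ± 16.2 CPM in RPM (log2 fold change -1.55, SE 0.52, adjusted p = 0.0611), and passed without RPMS line CMV_231 (log2 fold change -2.37, adjusted p = 0.0165). Herc6, the ligase that attaches ISG15 in mice, averaged 13.1 ± 6.95 CPM in RPMS and 36.0 ± 16.9 CPM in RPM (log2 fold change -1.46, SE 0.54, adjusted p = 0.0797), and it shares 13.7% of its exon bases with Gm45193 on the same strand. In Ifi27 and Herc6 the groups did not overlap. Among the measurable genes, Cmpk2, Usp18, Herc6, Ifi27, Ifi35, Parp9, Dtx3l, Ifit2, Ifitm2 and Lgals3bp were each lowest of the 3 RPMS lines in CMV_252, while Bst2, Isg20, Eif2ak2, Samd9l and Adar were highest there.

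**Figure D2:**
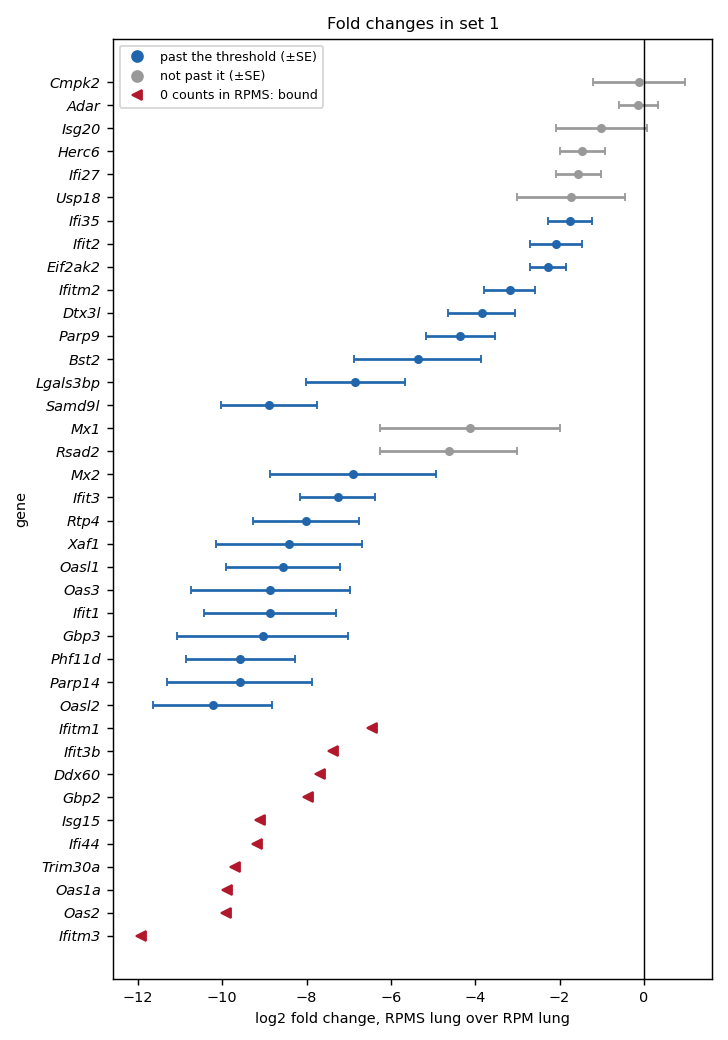
Log2 fold change of RPMS lung over RPM lung for each of the 38 genes in set 1, with genes in the same order as in the plot of levels. Blue points (20 genes) passed and grey points (8 genes) did not, bars are 1 SE from edgeR, and red triangles are bounds against 3 counts per library for the 10 genes at 0 counts in RPMS, which lie at -6.44 to -11.93, while Cmpk2 and Adar lie at -0.11 and -0.13.

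Per kilobase of exon, the level of a gene can be set beside that of another. On that scale Ifitm2 (17.3), Ifi27 (16.3) and Adar (12.9 CPM per kilobase) were the most abundant of the 38 genes in the RPMS lines of set 1 on average, ahead of Ifi35 (7.80), Usp18 (6.33) and Cmpk2 (6.19). The place of Ifitm2 is uncertain, given Gm45717 in CMV_228 and its 0 and 0.163 CPM in CMV_228 and CMV_231 of set 2. In RPM lines the most abundant were Ifitm3 (534), Bst2 (226), Ifitm2 (157), Lgals3bp (80.9) and Isg15 (67.7 CPM per kilobase), of which Ifitm3 and Isg15 had no read in RPMS. As a share of all reads of the 38 genes, Adar alone gave 37.3%, 27.3% and 53.6% in the RPMS lines, against 3.66% to 4.21% in the RPM lines. The 10 genes at 0 in RPMS gave 17.4% to 31.9% of these reads in the RPM lines.

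Many, though not all, of the genes that carry the interferon signal to the effectors were lower as well. A list of 17 genes held receptors, kinases, STATs and interferon regulatory factors, the inhibitors Socs1 and Socs3 and the interferon gene Ifnb1. Of these 16 were tested, 10 were lower, none was higher and 6 did not pass, with a median log2 fold change of -2.06. Of all genes tested 15.7% were lower. Irf8, a regulator of myeloid cells singled out after its values were seen, had 0.399, 0.222 and 0.907 CPM in RPMS, against 154, 144, 42.5 and 31.8 CPM in RPM (log2 fold change -7.50, SE 0.98, adjusted p = 0.00329), or -8.21 without RPMS line CMV_252. Socs1 (0.22) and Socs3 (0.24), which restrain JAK kinases, had log2 fold changes above 0 and did not pass. The receptor gene Ifnar1 had 56.5, 62.3 and 43.2 CPM in RPMS, against 116, 103, 110 and 129 CPM in RPM (log2 fold change -1.09, SE 0.19, adjusted p = 0.00745), and Ifnar2 fell by 2.47 on the log2 scale (SE 0.43, adjusted p = 0.00752), with a log2 fold change of -3.13 without RPMS line CMV_252. Transcripts of both receptor chains were thus present in every RPMS line, at levels without overlap with RPM. The 3 genes with the smallest adjusted p in this list were Ifngr2, a chain of the interferon gamma receptor (log2 fold change -2.51, adjusted p = 0.00183), and the kinases Jak1 (-1.57, 0.00253) and Tyk2 (-2.35, 0.00323).

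Among the ISGF3 genes, Irf9 had 10.8, 11.7 and 8.40 CPM in RPMS, against 62.2, 45.1, 33.2 and 79.3 CPM in RPM (log2 fold change -2.41, SE 0.36, adjusted p = 0.00467). Stat2 did not pass, with 17.0, 18.4 and 7.55 CPM in RPMS, against 83.2, 41.1, 10.7 and 59.5 CPM in RPM (log2 fold change -1.76, SE 0.69, adjusted p = 0.0943), but passed without RPM line CMV_428 (0.0220). Both transcripts were therefore measurable in every RPMS line. Irf7, a regulator that amplifies the response and is itself induced, had 0.553, 0.825 and 0.302 CPM in RPMS, against 65.4, 37.4, 5.25 and 74.5 CPM in RPM (log2 fold change -6.34, SE 1.06, adjusted p = 0.00664). Irf1, which also acts below interferon gamma, had a log2 fold change of -2.81 (SE 0.67, adjusted p = 0.0204), or -3.396 without RPMS line CMV_231, and did not pass without CMV_228 (0.0721). The interferon gene Ifnb1 had 0 counts in every library of both sets. Of 52 other interferon-induced genes 51 were tested, 36 were lower (15.7% of all genes tested were lower), none was higher and 15 did not pass, with a median log2 fold change of -4.76. Those with the smallest adjusted p were Samhd1 (log2 fold change -1.80, adjusted p = 0.00256), Tdrd7 (-3.61, 0.00264) and Nmi (-2.89, 0.00337). Genes of this list at 0 counts in every RPMS line, such as Ifi204, Sp100 and Slfn5, were tested only through their RPM reads. They could only come out lower.

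Ptprc, which encodes the leukocyte surface protein CD45, had 0 counts in the 3 RPMS lines of set 1, against 548, 262, 168 and 218 CPM in the RPM lines, so it was lower beside the effectors, at least 3227-fold (adjusted p = 0.00188). Between the groups the effectors and the leukocyte markers thus differed together. With every RPM line kept, they did not run in the same order. Ptprc was highest in CMV_426, where 7 of the 38 genes were highest (28.7% of all genes tested were highest in that library), while 30 were highest in CMV_429 (23.6% of all genes). Both Ptprc and 30 of the 38 genes were lowest in CMV_428, where 23.5% of all genes were lowest. The sum of the 38 genes was 6.84, 8.30, 6.10 and 23.8 times the Ptprc level in CMV_426, CMV_427, CMV_428 and CMV_429. The count of genes highest where Ptprc was highest was 3 without CMV_426, when Ptprc was highest in CMV_427 (37.8% of all genes). Without CMV_429 it was 32 (34.5% of all genes), and 30 were lowest where Ptprc was lowest (34.6% of all genes). The difference in order thus rested largely on CMV_429. Without CMV_428, Ptprc was lowest in CMV_429, where 3 of the 38 genes were lowest (35.2% of all genes).

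Set against Ptprc in the same library, Oas2 stood at 23.6, 14.7, 3.44 and 82.5 CPM per 100 CPM of Ptprc in CMV_426, CMV_427, CMV_428 and CMV_429. On that scale Isg15 stood at 7.82, 9.12, 1.10 and 62.5, and Ifi44 at 4.05, 1.69, 2.99 and 83.3. All 3 were thus higher beside Ptprc in CMV_429 than in the other RPM lines, while Ifitm2 stood at 22.8, 44.5, 47.1 and 41.6. On that scale 34 of the 38 genes were highest in CMV_429, Ifit2, Ifi27 and Ifitm2 in CMV_428 and Ifitm1 in CMV_427. Division by Ptprc raises any gene of steady level where Ptprc is low, as in CMV_428 and CMV_429. Stat3, at 32.7, 74.4, 95.1 and 95.8, was also highest in CMV_429. The share of all genes highest in each line was not computed on this scale, so the count of 34 is not set against it. Of the other 16 leukocyte markers with reads, 3 were highest in CMV_429 (Csf1r, Adgre1 and Aif1) and 10 in CMV_427. Across the RPM lines the highest library exceeded the lowest by a median of 7.70-fold over the 36 effectors with reads in all 4 (1.58-fold for Ifitm2 to 73.9-fold for Isg15), against 3.60-fold over 17 leukocyte markers (2.44-fold to 7.67-fold), 3.27-fold for Ptprc itself and 1.86-fold over all genes tested. Stat3 varied by 1.31-fold. Line CMV_429 also had the highest epithelial marker sum (735 CPM). Krt8 gave 546 CPM of it, Cldn3 84.2 CPM and Krt19 74.8 CPM, while Epcam had 0 counts there. Lines CMV_429 and CMV_428 carried alveolar and airway markers (1188 and 851 CPM, against 37.9 and 66.3 CPM in CMV_426 and CMV_427). Their part in the effector levels was not tested.

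**Figure D3:**
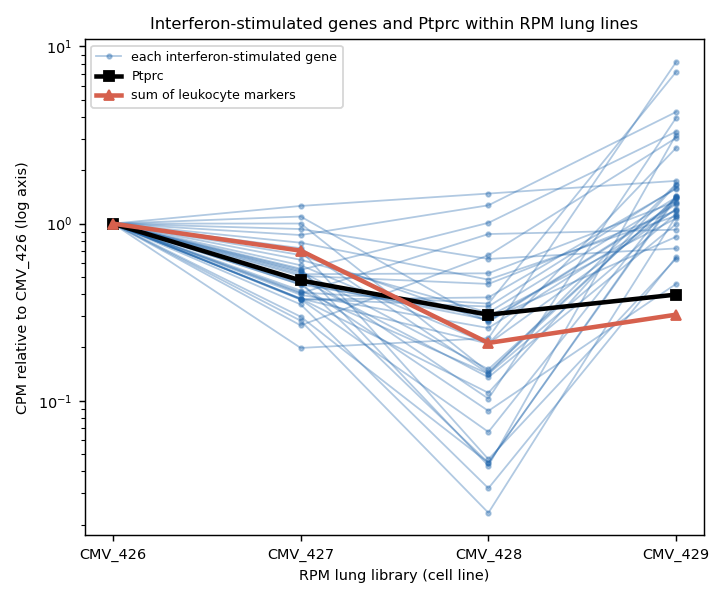
CPM relative to line CMV_426 on a log axis in the 4 RPM lung lines of set 1, for the 36 interferon-stimulated genes with reads in all 4 lines (thin blue lines), Ptprc (black squares) and the sum of leukocyte markers (red triangles). Ptprc is highest in CMV_426, while most blue lines dip at CMV_428 and end above 1 at CMV_429, where 30 of the 38 genes were highest.

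In set 2 no effector differed between RPMS liver and RPMS lung lines by the test. Of the 38 genes 18 had enough reads to be tested, and 0 of these were past the threshold, as were 0% of the 14441 genes tested. At an unadjusted p under 0.05 there were 650 genes, among them 2 of the 18, Bst2 and Isg20. DESeq2 called 52 genes and limma-voom 0, and neither called any of the 38. In all 18 the groups overlapped, where 1.2% of all genes were lower and 1.36% were higher without overlap. The median log2 fold change of the 18 was -0.24, against -0.02 over all genes tested, and ran from -0.59 without liver line CMV_343 to 0.09 without lung line CMV_231. Summed over the 38 genes, the liver lines had 200, 168, 362 and 221 CPM, against 176, 301, 295 and 466 CPM in the lung lines, the last of them the library labelled CMV_252.

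Bst2 had 0.217, 0.588, 1.60 and 2.14 CPM in liver lines CMV_273, CMV_341, CMV_343 and CMV_344, against 1.30, 1.85, 8.01 and 106 CPM in lung lines CMV_228, CMV_231, CMV_232 and CMV_252 (log2 fold change -4.70, SE 1.56, adjusted p = 0.945). Only CMV_252 stood far from the rest, and without it the log2 fold change was -1.70 (adjusted p = 0.869). Isg20 had 2.82, 4.06, 0.638 and 2.63 CPM in liver, against 2.43, 3.80, 8.99 and 24.9 CPM in lung (log2 fold change -1.98, SE 0.84, adjusted p = 0.945), and -0.999 without CMV_252 (adjusted p = 0.902). The groups overlapped in both genes. Ifit2 had 49.1, 18.3, 19.7 and 6.91 CPM in liver, against 18.01, 12.4, 36.3 and 0.230 CPM in lung. Cmpk2 had 22.9, 12.4, 39.4 and 19.9 CPM in liver, against 39.2, 25.3, 26.4 and 1.08 CPM in lung. Both were lowest in CMV_252, and the remaining lung lines lay within the liver range.

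Adar had 75.4 to 101 CPM in liver lines, against 64.0 to 181 CPM in lung lines (64.0 to 107 CPM without the library labelled CMV_252), and Eif2ak2 had 12.3 to 32.2 CPM in liver, against 20.1 to 24.2 CPM in lung. Usp18 had 5.04, 0.428, 22.4 and 4.18 CPM in liver, against 9.77, 66.6, 1.32 and 8.22 CPM in lung, a spread of 52.5-fold within liver and 50.6-fold within lung. Lgals3bp had 0.163, 12.1, 16.3 and 2.82 CPM in liver, against 0.678, 3.04, 2.17 and 0.384 CPM in lung. Liver line CMV_343 was the highest liver library for Usp18, Lgals3bp, Parp9, Dtx3l, Ifi27, Ifi35, Herc6 and Samd9l. Isg15 had 2, 6, 14 and 3 counts in the liver lines, against 1, 1, 2 and 3 in the lung lines, which overlapped and were too few for the filter. Ptprc had 0 to 5 counts in the 8 libraries of set 2, and leukocyte markers other than Lyz2 and Coro1a summed to 5.59 to 12.5 CPM in liver, against 4.52 to 11.1 CPM in lung.

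**Figure D4:**
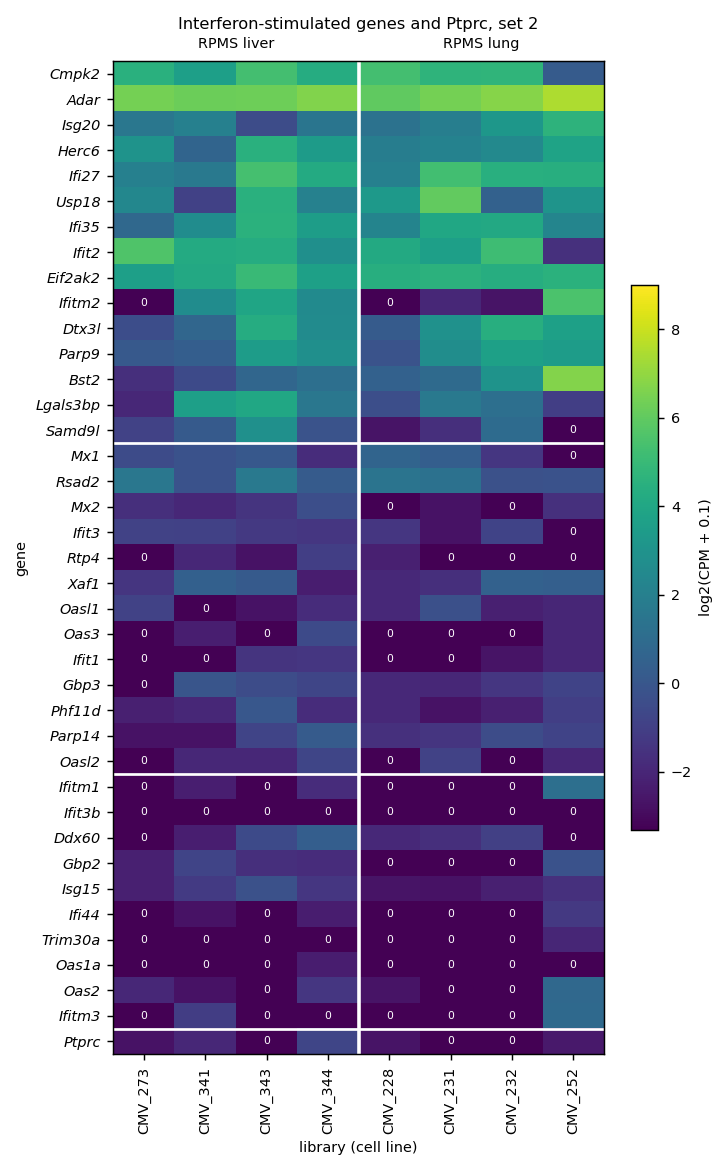
Level of the 38 genes and of Ptprc in the 8 RPMS libraries of set 2, as log2(CPM + 0.1) on the colour scale, with 4 liver lines left of 4 lung lines and genes in the order of the plot for set 1. White zeros mark 0 counts, Ifit3b is at 0 throughout, and the library labelled CMV_252 is brightest for Bst2 (106 CPM) and Ifitm2 (46.0 CPM).

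In set 2, 12 of the 38 genes were measurable in all 8 RPMS libraries, 1 (Ifit3b) was at 0 in all of them and 25 lay between. The genes measurable in every RPMS library of both sets were 11 in number, namely Isg20, Usp18, Ifi27, Ifi35, Bst2, Parp9, Dtx3l, Cmpk2, Herc6, Eif2ak2 and Adar. Rsad2 was measurable in set 2 alone. Ifit2, Ifitm2, Samd9l and Lgals3bp were measurable in set 1 alone, and without the library labelled CMV_252 the count in set 2 was 13, with Ifit2 added. Of the 10 genes at 0 in set 1, 9 had reads in at least 1 library of set 2, and 8 without the library labelled CMV_252, where Trim30a had its only reads. Trim30a and Oas1a had at most 2 counts in any of them, and Ifitm3 had 7 counts in liver line CMV_341, 23 in CMV_252 and 0 in the other 6 libraries. The only Oas1a read was in liver line CMV_344. That library, the smallest of set 2 at 9453715 counts, had reads of 30341 genes, against 21658 to 24549 in the others. Of the 38 genes it had the fewest at 0 counts, 3.

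Lung lines CMV_228, CMV_231 and CMV_252 have a library in both sets, so their levels can be set side by side. In CMV_228, 16 genes were above the floor in both sets, with a median ratio of set 2 to set 1 of 0.672, and 8 of them lay within 2-fold. In CMV_231 there were 19 such genes with a median ratio of 0.836, and 14 lay within 2-fold. In CMV_252 there were 13 with a median ratio of 2.03, 5 lay within 2-fold, and 10 more genes were above the floor in set 2 only, among them Ifitm1, Ifitm3, Oas2 and Gbp2. Usp18 in CMV_231, at 66.6 CPM in set 2 and 35.7 CPM in set 1, was the highest of the shared lines in both sets. Cmpk2 was lowest in CMV_252 in both sets, at 1.08 CPM in set 2 and 4.02 CPM in set 1, and Bst2 was highest there, at 106 CPM in set 2 and 13.8 CPM in set 1. Other genes did not keep their order. Ifitm2 had 0, 0.163 and 46.0 CPM in set 2, against 11.0, 19.7 and 3.29 CPM in set 1. Herc6, Parp9 and Dtx3l were lowest of these lines in CMV_252 in set 1 (5.89, 1.45 and 1.90 CPM). In set 2 all of them were highest there (13.9, 11.1 and 12.6 CPM). Samd9l was highest in CMV_252 in set 1, at 15 counts, and had 0 counts there in set 2. The tables were normalized separately, so levels set across them may differ by more than the lines do.

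**Figure D5:**
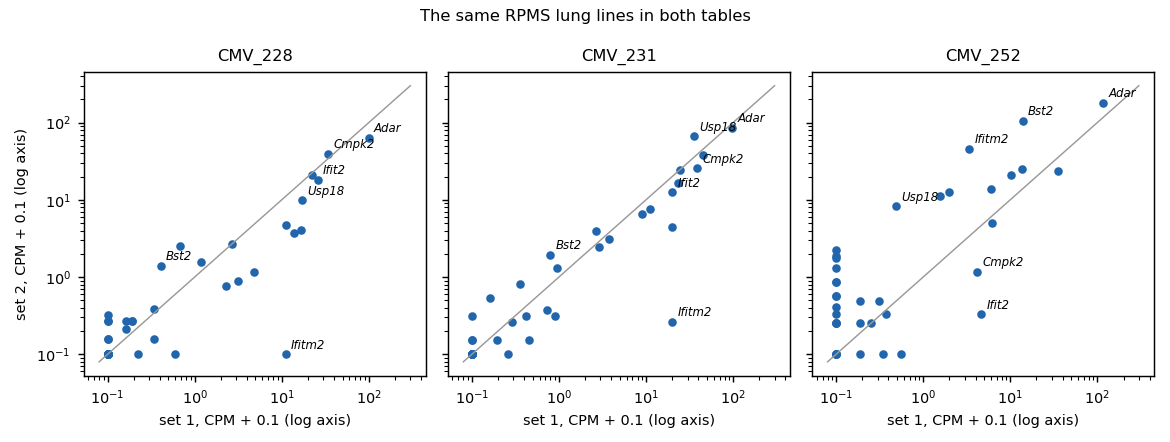
CPM + 0.1 of each of the 38 genes in set 2 (vertical) against set 1 (horizontal), both on log axes, for the 3 RPMS lung lines present in both sets, with the line of equal level in grey. Points in CMV_228 and CMV_231 lie nearer to that line (median ratios of 0.672 and 0.836), while in CMV_252 Bst2, Ifitm2 and Usp18 lie far above it and Cmpk2 and Ifit2 below.

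The ISRE matches of the 30 matched promoters were spread unevenly over the classes of set 1. A match was found in 6 of 9 genes with a promoter entry at 0 counts in RPMS (Ifit3b, Isg15, Oas1a, Trim30a, Ddx60 and Gbp2), in 5 of 9 between (Ifit1, Ifit3, Oas3, Rsad2 and Gbp3) and in 2 of 12 measurable genes (Bst2 and Ifitm2). Bst2, with its overlapping matches, was present in every RPMS library, while Ifitm3 and Ifi44, whose windows hold no match, were at 0 in set 1. In set 2 a match was found in 1 of 1, 10 of 20 and 2 of 9 genes at 0, between and measurable, or in 2 of 2, 9 of 18 and 2 of 10 without the library labelled CMV_252. These counts were compared after the levels were known and carry no test.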

How the data were processed

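Total RNA of 15 cultured libraries was sequenced with a stranded library kit, per the labels. The deposited values are read counts per gene, which the authors made with HISAT2 and StringTie on GRCm38, per the submitters' processing notes. Tool versions, the annotation and the strand setting are not given in the sources used here. The 38 genes and all lists were chosen with earlier results of these data known.

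Counts were tested within each table with edgeR 4.0.16 in R 4.3.3 (filterByExpr, TMM, two-sided quasi-likelihood test, Benjamini-Hochberg adjusted p under 0.05), checked on simulated counts. DESeq2 1.42.0, limma-voom 3.58.1, other scalings and filters, and each library left out were alternatives. A standard error is the log2 fold change divided by the root of F. A gene was measurable with more than 3 counts in every RPMS library. Bounds and floors use 3 counts per library and cover counting error only. All 38 genes may be named. Other lists are illustrated by the 3 genes with the smallest adjusted p among those passing, beside the genotype genes, Ptprc and the Stat, Irf and receptor genes given, and further genes were singled out after their values were seen. Positions and overlaps are from GENCODE on GRCm38. Results for some genes are not reported here.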

Additional observations from a re-analysis of the deposited data

Results flagged for a closer look

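In 18 of 100 groups of 4 libraries, 1 library lay farther from the others than Dixon's test allows at its 95% critical value. The rate of about 1 in 20 groups by chance holds for independent, normally distributed values. That was not checked for these CPM, and 7 of the 18 flags fell on 1 library, so the 18 are not set against that rate. In 5 of the 18 the other 3 libraries were at 0, so that any read is past the value. In the RPM lung lines of set 1, CMV_429 stood apart for Isg20 (25.8 CPM, against 5.20 to 7.66 CPM in the others), Ifi44 (182 CPM, against 4.42 to 22.2 CPM), Gbp3 (113 CPM, against 5.57 to 15.8 CPM) and Gbp2 (52.4 CPM, against 8.68 to 16.0 CPM). CMV_427 stood apart for Ifitm1 (31.1 CPM, against 0 to 0.745 CPM).

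In the RPMS liver lines of set 2, CMV_343 stood apart for Samd9l (7.29 CPM, against 0.434 to 1.02 CPM) and Phf11d (0.904 CPM, against 0.108 to 0.195 CPM), and CMV_341 for Ifitm3 (0.374 CPM, against 0 in the others). In the RPMS lung lines of set 2, the library labelled CMV_252 stood apart for 7 genes. These were Bst2 (106 CPM, against 1.30 to 8.01 CPM), Ifitm2 (46.0 CPM, against 0 to 0.163 CPM), Ifitm1 (2.15 CPM, against 0), Ifitm3 (1.77 CPM, against 0), Oas2 (1.69 CPM, against 0 to 0.0565 CPM), Gbp2 (0.768 CPM, against 0) and Ifi44 (0.307 CPM, against 0). CMV_231 stood apart for Usp18 (66.6 CPM, against 1.32 to 9.77 CPM) and Oasl1 (0.706 CPM, against 0.114 to 0.169 CPM), and CMV_232 for Samd9l (1.89 CPM, against 0 to 0.217 CPM).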

How the results depend on the processing

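In set 1, 18 of the 29 lower genes passed at 0.05 in every alternative run at that threshold, and 17 passed at 0.01, where 2103 of all genes passed. Over the other settings 17 to 32 of the 38 passed, against 2103 to 7262 of all genes, with 17654 to 29431 tested. Over single libraries left out 21 to 29 passed, against 2896 to 7076 of all genes, with 17381 to 18573 tested. Besides the genes named with the results, limma-voom lost Isg15 (adjusted p = 0.0632), Oas3 (0.122) and Oasl2 (0.0535). The median log2 fold change of the 38 ran from -8.54 to -7.12 without single libraries. Of the alternatives for single genes 469 kept direction and call, 48 lost and 6 gained the call, and 6 turned the sign, all of them in Cmpk2 and Adar, which passed in none. The Cmpk2 value was 0.10 with limma-voom, 0.46 without CMV_426, 0.38 without CMV_252 and 0.02 without CMV_429 and ran from -0.53 to 0.46 over libraries left out. The Adar value was 0.071 with limma-voom and ran from -0.41 to 0.24, the highest without CMV_429. The cause was not tested.

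In set 2, DESeq2 passed 52 genes and edgeR without a filter 2, none of them among the 38, and the median of the tested members ran from -0.59 to 0.09. Genes measurable in RPMS numbered 12 in set 1 and 9 in set 2 with more than 10 counts asked, and 15 to 18 and 12 to 13 without single libraries. The count of genes highest beside Ptprc ran from 3 to 32, in alternatives chosen after seeing the data. In these, 34.5% to 38.4% of all genes were highest there. Leaving CMV_252 out of the set 2 classes was also chosen after seeing the data. No paired analysis was possible because the groups compared share no line number. In set 2, at 9453715 counts in the smallest library, 20 of the 38 genes were too low to be tested.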
